A study of Homo sapiens with 2 samples.

Results

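The heat shock proteins and their transcriptional regulator HSF1 were described in transfected C33-A cells, a human cell line established from a carcinoma of the cervix, which grows attached and has epithelial morphology. The set holds 10 genes chosen by name: HSF1, HSPB1, HSPA4, HSPA8, HSPA13, HSPH1, HSP90AA1, HSP90AB1, DNAJB1 and BAG3. A probe set, the group of array probes designed for one transcript, was taken in where the platform annotation gives it exactly 1 gene symbol and that symbol is a member. This gave 22 probe sets for 9 of the 10 members, out of 19775 genes with such a probe set in the whole series. The annotation lists each of the 4 probe sets of HSPA8 together with the snoRNA genes SNORD14C and SNORD14D, which lie in HSPA8 introns, so no value is given to HSPA8 alone.

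The CA9 line carries the full-length human cDNA of CA9 (carbonic anhydrase IX, a membrane enzyme of pH control) in the vector pcDNA3.0, and the vector line carries empty vector. Both lines were grown in RPMI with 10% serum, and RNA was taken on day 4 after seeding. There was 1 Affymetrix array per line. Whether each line came from 1 clone or from pooled transfectants is not stated. CA9 itself has no probe set in the annotation used here, so transgene expression was not analysed and cannot serve to check the labels.

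Heat shock proteins are chaperones that bind unfolded proteins and help them fold. HSP70 proteins bind short exposed stretches of a client in cycles of ATP use, J-domain proteins deliver clients and start ATP hydrolysis, nucleotide exchange factors release them, and HSP90 completes the folding of kinases, receptors and other clients. HSF1 is the transcription factor of the heat shock response: it is held inactive by chaperones, forms trimers under stress, and binds heat shock elements, which are alternating GAA and TTC blocks in promoters. Tumour cell lines often carry high levels of these chaperones. HSPA13 does not match the cytosolic label of the set, since it is known as an HSP70-type protein of microsomes, the membranes of the endoplasmic reticulum.

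Heat shock elements are shown first, because they are the sequences that HSF1 binds. Binding of HSF1 to the members was not measured. RefSeq promoter windows (GRCh38.p14, 250 bases before to 50 bases after a gene's start) were given for 9 members, with 14 windows, and not for HSF1. The search used GAANNTTC and TTCNNGAA, which are 2 blocks each and read the same on both strands, and a longer form in which GAANNTTC is followed by NNGAA or TTCNNGAA by NNTTC. The short forms overlap each other wherever the longer form is present. A short form was found in 5 members, HSPB1, HSPA8, HSP90AA1, HSP90AB1 and DNAJB1, and in 16.2% of all 27305 genes with a window (13.5% of 35116 windows). The longer form of 3 blocks was found in HSPA8, HSP90AA1 and HSP90AB1, and in 0.608% of all genes with a window (0.49% of windows). The windows of HSPA4, HSPH1, HSPA13 and BAG3 held neither form, which says only that these letters are not in these windows.

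The stretches below hold the matches, 5′ to 3′ on the strand of the gene, with 20 bases on either side where the window allows and the matches in capitals. Exact matches differ between members: 3 blocks in the HSP90 genes and HSPA8, and only 2 in DNAJB1 and HSPB1. Blocks with a changed letter were not searched, so a further block of that kind is not marked. For DNAJB1 the window with 2 matches is shown, a window of another start held 1, and a further window held none.
HSP90AA1, chr14:102087085-102087152, minus strand: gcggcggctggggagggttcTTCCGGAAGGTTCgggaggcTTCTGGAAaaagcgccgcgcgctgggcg
HSP90AB1, chr6:44247758-44247863, plus strand: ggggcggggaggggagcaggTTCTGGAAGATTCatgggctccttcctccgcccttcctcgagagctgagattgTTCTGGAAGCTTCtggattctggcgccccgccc
HSPA8, chr11:123062159-123062386, minus strand: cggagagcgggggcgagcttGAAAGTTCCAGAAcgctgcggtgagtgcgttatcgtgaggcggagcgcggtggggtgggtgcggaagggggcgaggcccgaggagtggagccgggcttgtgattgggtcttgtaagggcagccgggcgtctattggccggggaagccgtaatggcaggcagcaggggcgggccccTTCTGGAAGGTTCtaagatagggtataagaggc
DNAJB1, chr19:14518417-14518494, minus strand: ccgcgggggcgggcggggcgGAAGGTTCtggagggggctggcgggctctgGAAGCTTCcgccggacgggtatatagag
HSPB1, chr7:76302471-76302518, plus strand: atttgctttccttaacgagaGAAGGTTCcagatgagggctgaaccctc

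In HSP90AB1 the runs of 13 bases began 165 and 112 bases before the gene start of the window shown. In HSP90AA1 a run of 13 bases began 88 bases before the gene start of the window shown, and a run of 8 bases 68 bases before it. The windows of other starts of both HSP90 genes held neither form. In HSPA8 the runs of 13 bases began 230 and 55 bases before the start. The matches of DNAJB1 began 77 and 47 bases before the start of this window, and the match of HSPB1 began 182 bases before its start.

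The window of HSPA13, the member with the largest difference between the lines, is given whole, without a match.
HSPA13, chr21:14383097-14383396, minus strand: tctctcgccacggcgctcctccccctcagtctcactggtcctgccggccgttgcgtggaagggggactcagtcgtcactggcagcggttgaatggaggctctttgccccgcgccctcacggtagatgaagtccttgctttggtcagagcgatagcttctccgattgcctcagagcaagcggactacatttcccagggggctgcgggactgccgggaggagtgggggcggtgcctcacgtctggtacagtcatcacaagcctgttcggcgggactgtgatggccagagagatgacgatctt

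The arrays gave a median intensity of 41.76 in CA9 cells, against 40.02 in vector cells, on a linear scale in arbitrary units. A probe set was above the floor if its higher array exceeded 40.8, the median of both arrays, and 13823 genes were measurable in this way by their brightest probe set. Differences are on the log2 scale, CA9 cells minus vector cells. Each line has a single array, so there was no replicate and no test was made, and nothing here separates an effect of CA9 from the spread between cultures, clones or arrays. As a measure of technical disagreement, the SD of differences between probe sets of the same gene was 0.31 when pooled over 6186 genes. The epithelial markers KRT8 and KRT18 were above the floor on both arrays, KRT19 only on the CA9 array, and EPCAM and CDH1 on neither. The blood markers PTPRC and CD14 were above the floor on 1 array each, CD3E on neither. Markers of fibroblasts and endothelium (COL1A1, COL3A1, THY1, PECAM1 and VWF) were above it on both arrays, with differences from -0.05 to 0.55, and VIM had 2867 in CA9 cells, against 1131 in vector cells. The part of these markers in the results below was not tested, and in bulk RNA fewer cells of a kind and less RNA per cell cannot be told apart. Of the 22 member probe sets, 12 are named _s_at and 3 _x_at, classes that can also bind related transcripts.

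The heat shock genes lay on both sides of 0, much as genes in general did. None of the 9 members was at least 2-fold higher, against 0.651% of all measurable genes, and none was at least 2-fold lower, against 0.694%. At 1.5-fold, 1 member was higher (HSPB1), against 5.29% of genes, and 1 was lower (HSPA13), against 4.74%. The median difference of the members was 0.01, and that of all measurable genes was -0.03, with an SD of 0.38 over genes. Of the members 5 lay above 0 and 4 below. Within 0.3 of 0 lay 5 of the 9 members, which is 55.6%, against 62.7% of all genes.

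**Figure D1:**
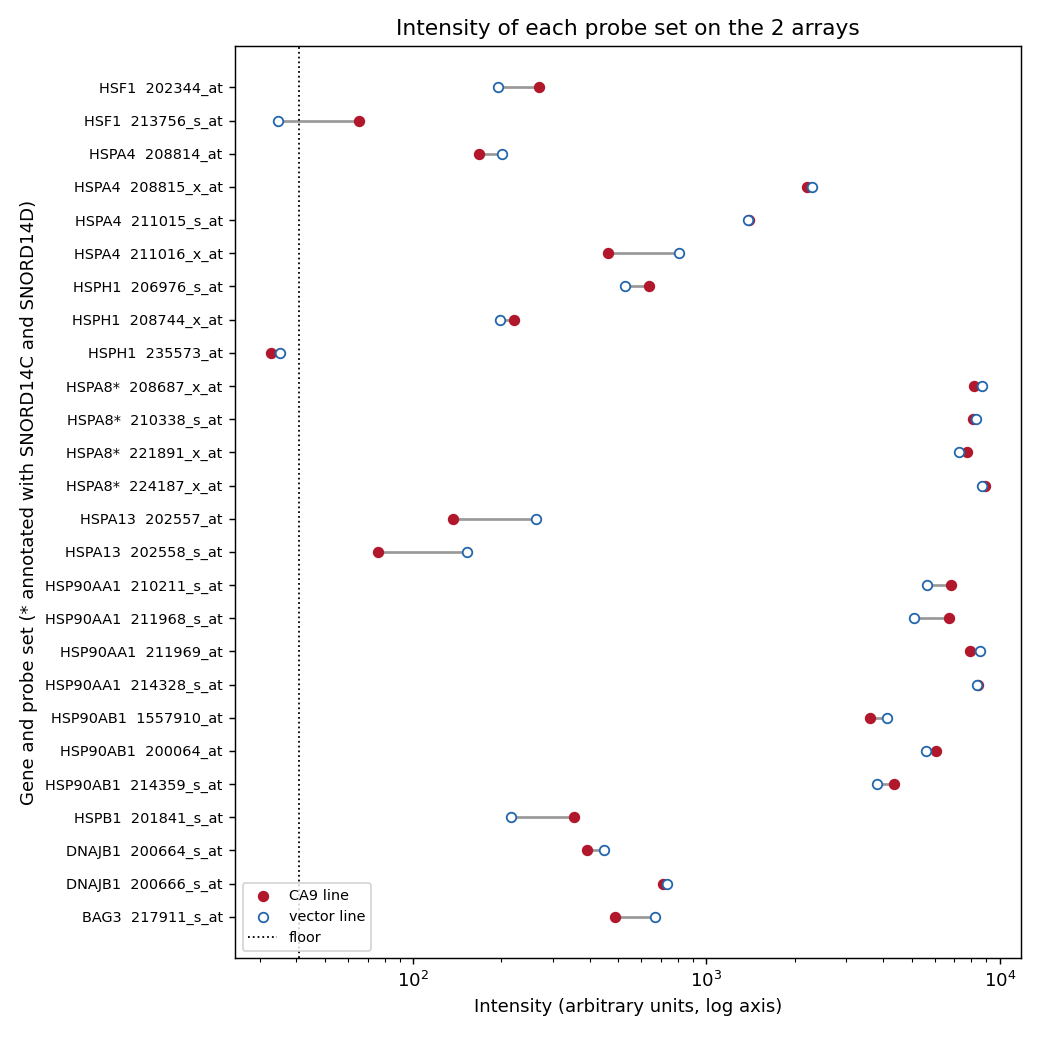
Intensity of every member probe set on the log axis, with the CA9 line as filled points and the vector line as open points, 1 array each, and the floor of 40.8 as a dotted line. The probe sets of HSPA13 stand well to the left in the CA9 line, those of HSF1 and HSPB1 to the right, and those with the shared HSPA8 annotation nearly coincide.

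HSF1, the regulator, was higher in the CA9 line by both of its probe sets. The brighter one had an intensity of 268 in CA9 cells, against 195 in vector cells, a difference of 0.46 or 1.38-fold. The second had 65.4 in CA9 cells, against 34.5 in vector cells, a value below the floor, and against the floor it was at least 1.60-fold higher. Of all measurable genes 9.08% had a difference as high as that of the brighter probe set. Among the 3455 genes of similar mean intensity (130.6 to 327) the share was 4.92%. Neither probe set was shown to be 2-fold apart.

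Among the other regulators of the pathway, 9 of 14 listed genes were measurable and none was 2-fold apart, with 4 above 0 and 5 below. SIRT1, a deacetylase that keeps HSF1 bound to DNA, had 175 in CA9 cells, against 278 in vector cells, a difference of -0.67. HSF4, the HSF family member best known from the lens, had 138 in CA9 cells, against 100.3 in vector cells, a difference of 0.46. The median difference of this list was -0.12.

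HSPA13, an HSP70-type protein with an ATPase domain, had the lowest difference of all members. Its brighter probe set had an intensity of 137 in CA9 cells, against 262 in vector cells, and the other had 76.0 in CA9 cells, against 153 in vector cells. The differences were -0.93 and -1.01, or 1.91-fold and 2.01-fold lower, and all 4 values lay above the floor. Both probe sets gave nearly the same difference, with an SD of 0.05 between them. Only 0.91% of measurable genes had a difference as low, and 0.87% of the 3455 genes in the same class when genes were cut into 4 equal classes of mean intensity (130.6 to 327). The second probe set was the only one of the 21 member probe sets above the floor that was 2-fold apart, which is 4.76%, against 1.51% of all probe sets above the floor.

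**Figure D2:**
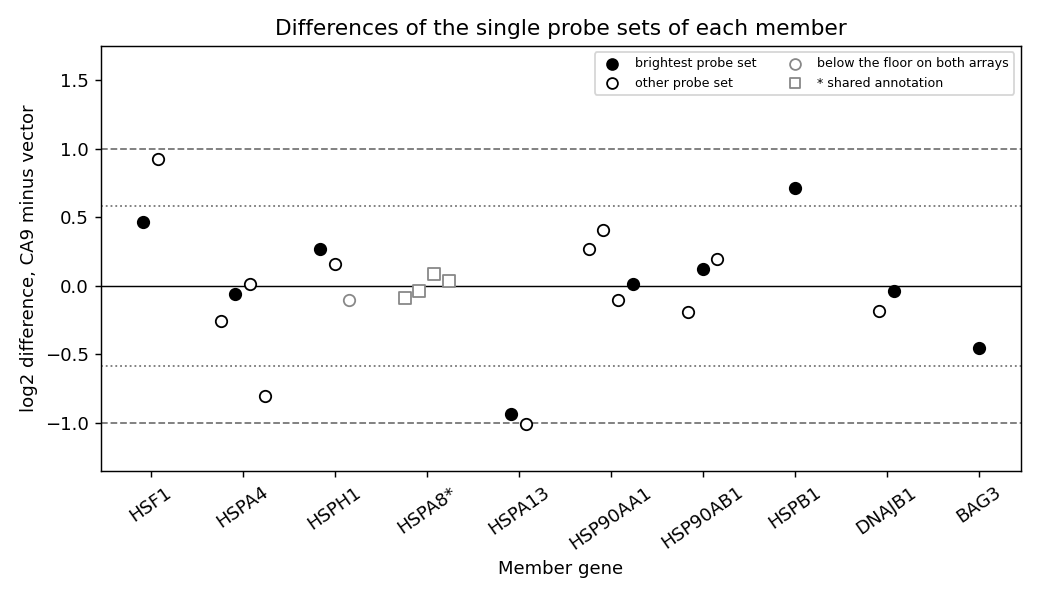
Log2 difference, CA9 minus vector, of every member probe set, with the brightest of each gene filled, dashed lines at 2-fold and dotted lines at 1.5-fold. HSPA13 lies at -0.93 and -1.01 and HSPB1 at 0.71, while the HSPA4 probe sets run from -0.80 to 0.01. The upper point of HSF1 uses a vector value below the floor.

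HSPA8, the constitutive HSP70 of the cytosol, could not be read alone. The 4 probe sets annotated jointly to HSPA8, SNORD14C and SNORD14D had intensities of 8151, 8081, 7723 and 8888 in CA9 cells, against 8686, 8297, 7282 and 8700 in vector cells. Their differences ran from -0.09 to 0.08, with 2 above 0 and 2 below. With the brightest of them taken in as HSPA8, a step added after the values were seen, the median of the members would be 0.02.

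HSPA4 and HSPH1 belong to the HSP110 group, large relatives of HSP70 that act as its nucleotide exchange factors. HSPA4 had 2196 in CA9 cells, against 2286 in vector cells by its brightest probe set, a difference of -0.06. A second had 1395 in CA9 cells, against 1386 in vector cells, and another 167 in CA9 cells, against 200.3 in vector cells, with differences of 0.01 and -0.26. The fourth stood apart from these at 461 in CA9 cells, against 806 in vector cells, a difference of -0.80. The SD between the 4 differences was 0.37, so the probe sets of HSPA4 do not give one value.

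HSPH1 had 636 in CA9 cells, against 528 in vector cells, a difference of 0.27 or 1.20-fold. A second probe set had 222 in CA9 cells, against 198 in vector cells, a difference of 0.16, and the third was below the floor on both arrays, at 32.8 in CA9 cells, against 35.3 in vector cells. The 2 readable probe sets thus lay on the same side of 0 and within the SD between probe sets of 0.31.

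The HSP90 genes, whose products are the stress-responsive (HSP90AA1) and the constitutive (HSP90AB1) cytosolic HSP90, differed between the lines by at most 1.32-fold in any probe set. HSP90AA1 had 8441, 7936, 6791 and 6735 in CA9 cells, against 8374, 8538, 5628 and 5085 in vector cells, for its 4 probe sets in order of brightness. The differences were 0.01, -0.11, 0.27 and 0.41, with 3 of 4 above 0. HSP90AB1 had 6080, 4366 and 3614 in CA9 cells, against 5595, 3817 and 4125 in vector cells, with differences of 0.12, 0.19 and -0.19. The brightest probe sets of both genes thus differed between the lines by at most 1.09-fold. The brightest probe set of HSP90AA1 was so close to 0 that its sign depends on the scaling, at -0.05 when both arrays were given the same median.

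HSPB1, a small heat shock protein that holds unfolded proteins in solution without ATP, was the member with the highest difference. Its only probe set had 355 in CA9 cells, against 216 in vector cells, a difference of 0.71 or 1.64-fold. Of all measurable genes 2.84% had a difference as high, and 1.56% of those in the same intensity class. No second probe set checks this value.

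DNAJB1, the J-domain partner of HSP70 that HSF1 induces under heat, had 713 and 392 in CA9 cells, against 731 and 447 in vector cells. Its differences were -0.04 and -0.19, and the first flipped to 0.04 after quantile normalization and 0.06 after removal of a loess trend. BAG3, which links HSP70 to small heat shock proteins and to autophagy, had 488 in CA9 cells, against 669 in vector cells by its only probe set, a difference of -0.45 or 1.37-fold lower. A difference as low was seen in 9.55% of measurable genes, and in 5.58% of those in the same intensity class. HSPB1, DNAJB1 and BAG3 are textbook HSF1 targets, as are HSPH1 and HSP90AA1. The differences of these genes, in this order, were 0.71, -0.04, -0.45, 0.27 and 0.01 by their brightest probe sets.

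**Figure D3:**
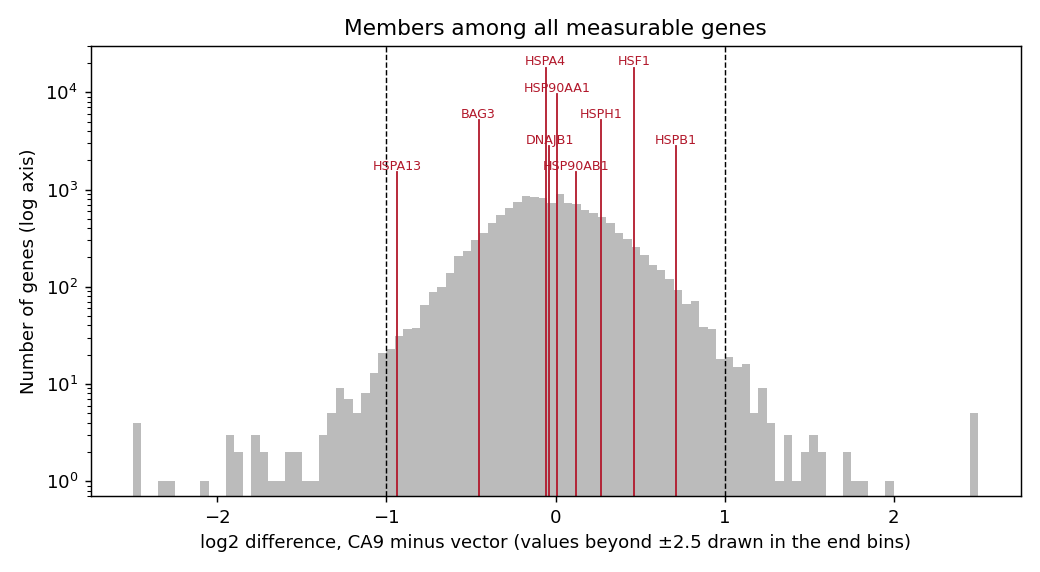
Number of genes by log2 difference, CA9 minus vector, for 13823 measurable genes, on a log axis, with the 9 members as red lines and 2-fold as dashed lines. The members spread from -0.93 to 0.71, and 5 of them lie within 0.3 of 0.

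The spread of differences over genes depended on brightness. This spread holds differences between the lines as well as technical disagreement. In the brightest of the 4 intensity classes (mean intensity above 327), which holds BAG3, DNAJB1, HSPH1, HSPA4 and both HSP90 genes, the SD of the differences over genes was 0.29 and 3.36% of genes were 1.5-fold apart. In the next class, which holds HSF1, HSPB1 and HSPA13, the SD was 0.36 and 9.58% of genes were 1.5-fold apart. The pooled SD between probe sets of the same gene differed less, at 0.28 in the brightest class and 0.31 in the next. Of the 21 member probe sets above the floor, 5 were at least 1.5-fold apart, which is 23.8%, against 11.3% of all probe sets above the floor. These were both of HSPA13, 1 of HSPA4, 1 of HSPB1 and the dimmer one of HSF1.

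The wider chaperone network was described with 10 lists that hold 120 genes besides the members, 102 of them measurable. None was shown to be 2-fold apart by its brightest probe set: HSPB9 alone passed 2-fold on its deposited values, with the vector value below the floor. At 1.5-fold, 2 of the 102 genes were higher, which is 1.96%, and 4 were lower, which is 3.92%, so that neither share exceeded the 5.29% and 4.74% of all measurable genes. The median over the 102 genes was -0.02. Some genes stand in more than 1 list. All counts and medians of the lists use the brightest probe set. Other probe sets of some genes lay farther from 0, on deposited values and on both sides. Examples are BAG1 at -1.41, HSP90B1 at -0.85, AHSA2P at -0.82, SUGT1 at -0.73, PFDN4 at 0.98 and CALR at 1.98.

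Among 5 measurable of 9 other small heat shock proteins all differences were above 0, with a median of 0.32. All 5 fell in the dimmest of the 4 intensity classes, in which 61.8% of genes lay above 0, against 45.9% of all measurable genes. HSPB9, a testis small heat shock protein, had 61.8 in CA9 cells, against 29.8 in vector cells, a value below the floor, and against the floor it was at least 1.51-fold higher. CRYAA, alpha-A crystallin of the lens, had 77.1 in CA9 cells, against 47.4 in vector cells, a difference of 0.70. The others, CRYAB, HSPB2 and HSPB6, had differences of 0.17, 0.32 and 0.19 at intensities below 60.

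The other HSP70 genes had 8 measurable of 12, none 1.5-fold apart, and a median of 0.03. HSPA12A, a distant HSP70 relative, had the lowest difference at -0.53, with 83.9 in CA9 cells, against 121 in vector cells, but a second probe set at 0.32. HSPA12B had 70.4 in CA9 cells, against 58.6 in vector cells, a difference of 0.27. Of the 20 J-domain genes, all measurable, none was 2-fold apart, and 9 lay above 0 and 11 below, with a median of -0.12. DNAJB9 and DNAJC10, J-domain proteins of the endoplasmic reticulum, had the lowest differences. DNAJB11, of the same compartment, had the highest, at 0.36, close to DNAJB2 at 0.35. DNAJC3, also of that compartment, lay between at 0.14, with a second probe set at -0.44. DNAJB9 had 45.1 in CA9 cells, against 75.3 in vector cells, a difference of -0.74, with a second probe set at -1.08. DNAJC10 had 201 in CA9 cells, against 312 in vector cells, a difference of -0.63, with others at -0.30 and -0.35.

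Of 14 measurable HSP90 co-chaperones none was 1.5-fold apart, and the median was 0.02. UNC45A, a myosin chaperone that binds HSP90, had 301 in CA9 cells, against 228 in vector cells, a difference of 0.40, with a second probe set at -0.01. STIP1, which joins HSP70 and HSP90, had 1555 in CA9 cells, against 1285 in vector cells, a difference of 0.28 and a second at -0.02. Of 12 HSP70 exchange factors and co-factors none was 1.5-fold apart by its brightest probe set, and the median was -0.03. BAG1, at -0.12 by its brightest probe set, had others at 0.09 and -1.41. GRPEL2, a mitochondrial exchange factor, had 228 in CA9 cells, against 317 in vector cells, a difference of -0.47 and a second at -0.49. HSPBP1, which releases nucleotide from HSP70, had 481 in CA9 cells, against 410 in vector cells, a difference of 0.23.

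The cytosolic chaperonin and prefoldin genes, which fold actin and tubulin, had 12 measurable of 14, a median of 0.03 and no gene 1.5-fold apart. The prefoldin subunits PFDN5 and PFDN2 had the lowest differences, at -0.39 and -0.28. By their brightest probe sets the 9 genes listed as mitochondrial chaperones lay closest together, from -0.02 to 0.12. This list includes the proteases CLPP and LONP1. CLPP was at 0.12 and CLPB at 0.08. Other probe sets of HSPD1, a gene of this list, were at -0.05, -0.59 and 0.40. The mitochondrial exchange factor GRPEL2, at -0.47, was not in this list. Of 15 chaperones of the endoplasmic reticulum 10 lay below 0, with a median of -0.12, while 53.0% of all measurable genes lay below 0. MANF, a secreted stress-induced protein of that compartment, had 737 in CA9 cells, against 1050 in vector cells, a difference of -0.51. CALR, the calcium-binding lectin chaperone calreticulin, was named after its values were seen: its brightest probe set had 1086 in CA9 cells, against 857 in vector cells, and the others 782 and 496 in CA9 cells, against 413 and 126 in vector cells. Its differences were 0.34, 0.92 and 1.98, all above 0.

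Targets of HSF1 outside the set had 21 measurable of 28, none 2-fold apart, with 9 above 0, 12 below and a median of -0.03. ATF3, a stress transcription factor, had 56.7 in CA9 cells, against 98.8 in vector cells, a difference of -0.80, but other probe sets at 0.29 and 0.23. FOS, an immediate early transcription factor, had 44.9 in CA9 cells, against 63.8 in vector cells, a difference of -0.51. The longer form of 3 blocks was present in a promoter window of 56 measurable genes. Of these, 2 were at least 1.5-fold higher and 3 lower, together 8.93%, against 9.64% of the 11001 measurable genes with a window. Their median difference was -0.03, and that of all genes with a window was -0.05.

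**Figure D4:**
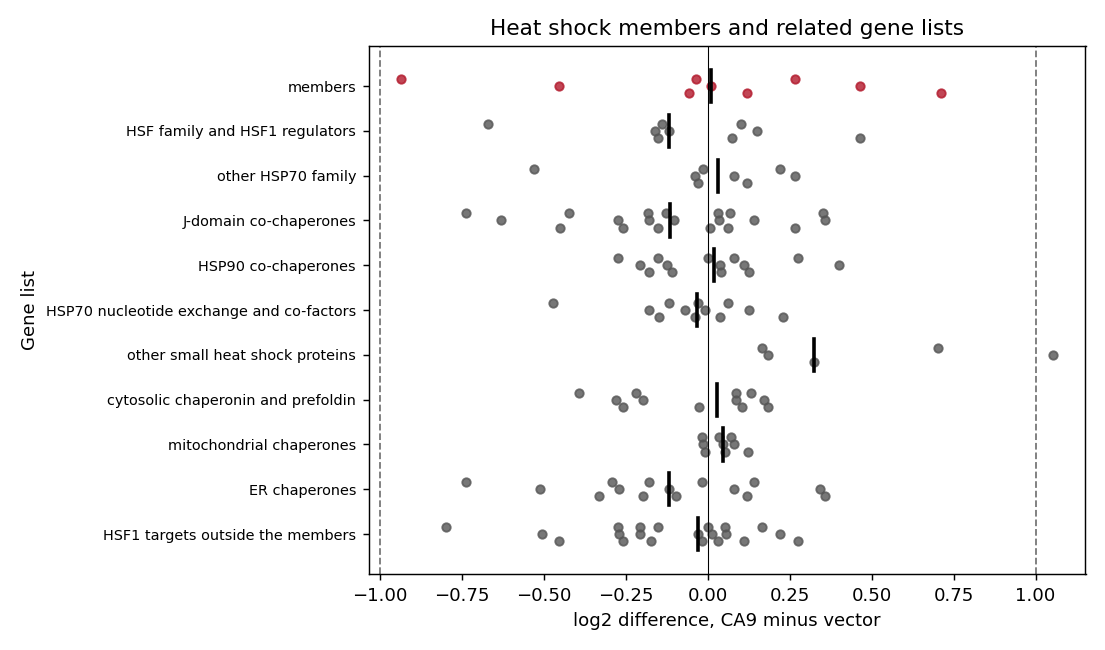
Log2 difference, CA9 minus vector, of each measurable gene in the members (red) and in 10 related lists (grey), with black bars at the medians and dashed lines at 2-fold. Only HSPB9 lies past 2-fold, on a vector value below the floor that allows at least 1.51-fold. The genes listed as mitochondrial chaperones are closest together by their brightest probe sets.

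Over the processing alternatives the difference of HSPA13 ran from -1.01 to -0.82, with no change of sign. That of HSPB1 ran from 0.65 to 0.83 and that of BAG3 from -0.52 to -0.35. HSPB1 and BAG3 have 1 probe set each, so only the scaling and the pseudocount could change their values. That of HSF1 was at least 0.40, and its higher values rest in part on the probe set whose vector value was below the floor. HSP90AB1 and HSPH1 were above 0 in every alternative that gave a value, from 0.04 to 0.19 and from 0.11 to 0.37. HSP90AA1, DNAJB1 and HSPA4 had values on both sides of 0, from -0.11 to 0.15, from -0.19 to 0.06 and from -0.28 to 0.01.

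**Figure D5:**
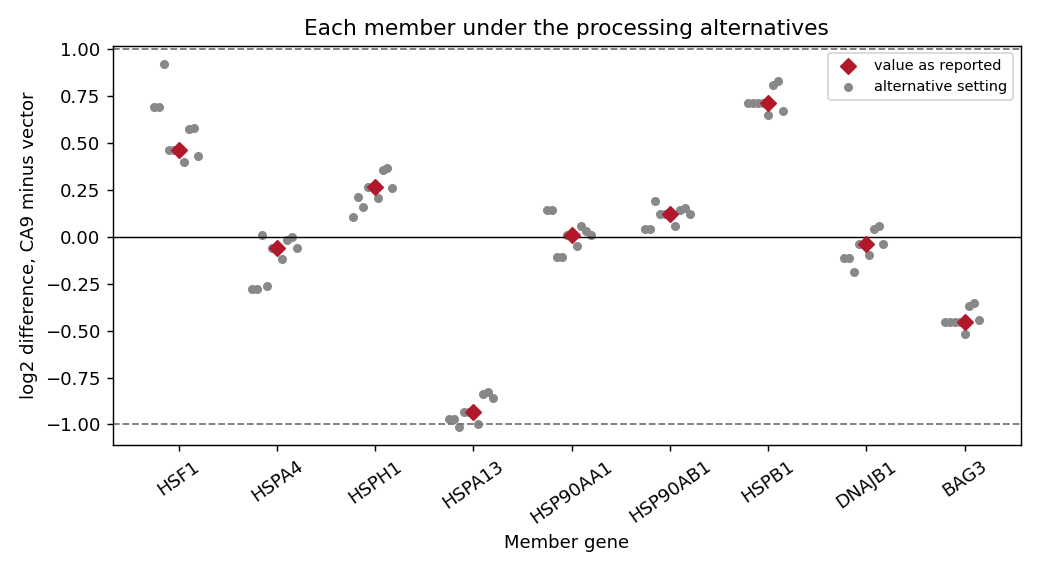
Log2 difference, CA9 minus vector, of each member as reported (red diamonds) and under up to 10 alternative settings (grey points), with dashed lines at 2-fold. HSPA13 stays below -0.8 and HSPB1 above 0.6, and HSP90AA1, DNAJB1 and HSPA4 straddle 0. The highest points of HSF1 use a vector value below the floor.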

How the data were processed

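RNA of 2 C33-A lines was measured on 1 array each. The deposited intensities come from RMA run by the authors (per the submitters' processing notes); its version and probe definitions are not given in the sources used here. The values are linear and were put on log2 without a pseudocount. A platform annotation table gave 1 symbol to 41091 probe sets, several to 1801 and none to 11721; Entrez identifiers of 41037 matched RefSeq (GRCh38.p14), which updated symbols. A gene was represented by its brightest probe set.

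With no replicate there is no test: sizes, counts at 2-fold and 1.5-fold, and medians are given beside all measurable genes. The number of arrays limits the precision. Counts use the deposited values also where the lower array is below the floor, and such folds are given against the floor in the text. Members and lists were chosen with earlier results of these data known. Named genes were all members, and of each list its genes at 2-fold (at most 3) or otherwise the 2 farthest from 0. The small heat shock proteins beyond HSPB9, the other probe sets of further list genes, and the 1.5-fold limit for probe sets were described after values were seen. Alternatives varied the probe set, floor, scaling and a pseudocount of 16. Protein sequences were not used here. Python 3.11.15, numpy 2.4.6, pandas 2.3.3, statsmodels 0.14.6 and matplotlib 3.10.9 were used.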

Additional observations from a re-analysis of the deposited data

How the results depend on the processing

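No paired analysis was possible because each line has 1 array. No member was 2-fold higher under any of 10 alternatives. With the second brightest probe set, which 7 members have, 1 member (HSPA13) was 2-fold lower in place of 0; the second of HSF1 gives only a bound. The count of member probe sets at least 2-fold apart was 0 in place of 1 after quantile normalization, after removal of a loess trend and with 16 added before log2. Counting deposited values whether or not the lower array is above the floor, 1 related gene was 2-fold apart (HSPB9, or DNAJB9 with the second brightest probe set); the count was 2 with averaged probe sets (all, or those above the floor) and without _x_at and _s_at probe sets, with CALR added each time, and 0 with the floor at the 75th percentile, equal medians, the loess trend removed or 16 added. The members' median ran from -0.11 to 0.06. With the second brightest probe set the medians of the chaperonin and prefoldin list and of the ER chaperone list were -0.30 and -0.44. Equal medians gave 69 higher and 123 lower genes over all genes, in place of 90 and 96, and averaging all probe sets gave 45 and 48. Dim genes such as HSPB9 rest on values near the floor.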

Other observations

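The heat-inducible HSP70 genes HSPA1A and HSPA1B are nearly identical and share their probe sets, so they were not named in the counts. The probe sets annotated to both had 1355 and 542 in CA9 cells, against 1436 and 634 in vector cells, with differences of -0.08 and -0.23. The probe set annotated to these and HSPA1L had 1079 in CA9 cells, against 935 in vector cells, a difference of 0.21. Their differences lie on both sides of 0, and all were short of 1.5-fold.

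The measurable protein-coding genes next to the members on the chromosomes, looked at after the members' values were known, were compared in sign. Of 17 immediate neighbours 14 had the sign of the member, which is 82.4%, against 54.1% of 12586 adjacent pairs of measurable genes. Of 17 second neighbours only 8 did, which is 47.1%, against 53.4% of pairs 2 apart. Without HSPA4, DNAJB1 and HSP90AA1, whose values lie on both sides of 0 across settings, 9 of 11 immediate neighbours had the sign of the member. Some neighbours with the shared sign lay near 0, such as NFKBIE next to HSP90AB1 at 0.075 and YWHAG next to HSPB1 at 0.11. Such values are within the SD of 0.31 between probe sets of the same gene. SRRM3, next to HSPB1, had a difference of 0.64, with 126 in CA9 cells, against 80.5 in vector cells. MROH1, the nearest measurable gene on one side of HSF1, had 185 in CA9 cells, against 136 in vector cells, a difference of 0.44, and DGAT1 on the other side was at 0.03. NRIP1, the nearest measurable neighbour of HSPA13, had 127 in CA9 cells, against 178 in vector cells, a difference of -0.49. The other sign was seen in WDR20 next to HSP90AA1, at -0.73, B3GLCT next to HSPH1, at -0.60, and TIAL1 next to BAG3, at 0.12. What the shared signs reflect was not tested.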
